A study of Homo sapiens with 6 samples.

Results

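The genes described here encode 36 proteins that hold synapses together: 22 adhesion proteins of the cell surface and 14 scaffold proteins that lie beneath the postsynaptic membrane. They were chosen by name from the 61860 genes of the deposited table, leaving out any relative whose gene spans 1000000 bp or more. The rule itself uses names and spans only, but the members were chosen with earlier results of these data known. The longest member spans 785 kb. Expression was measured by RNA sequencing in SH-SY5Y, a human neuroblastoma cell line, differentiated towards neurons with all-trans retinoic acid and made insulin resistant (IR) over 24 h with insulin at 100 nM in 30 mM D-glucose. Both groups shared the differentiation and the insulin and glucose. The IR control group (3 libraries) received nothing more, and the IR+Oligonol group (3 libraries) also received Oligonol (a lychee-derived polyphenol product) at 500 ng/mL for 24 h. The comparison addresses what Oligonol does to insulin-resistant neuron-like cells. No group without insulin resistance is analysed here, and all cells are of 1 line. The labels do not say whether a group's 3 libraries are separate cultures, and the spread behind each p-value may therefore be technical.

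At a synapse, presynaptic hubs such as neurexins and LAR-type receptor phosphatases bind postsynaptic partners such as neuroligins and LRRTM proteins across the cleft, and immunoglobulin-type adhesion proteins (SynCAMs, NCAMs, the L1 family and contactins) bind copies of themselves or of each other. Inside the receiving cell, DLG proteins (the family of PSD-95) gather receptors and adhesion proteins, and DLGAP, SHANK and HOMER proteins link them in layers to the actin skeleton and to calcium stores. A neuroblastoma line expresses many of these genes without forming mature synapses, and several of them also serve in axon growth or in epithelial junctions.

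Estimated counts summed to between 19457923 and 32209583 per library, and protein-coding genes held 6.24 to 6.83% of them in the controls and 10.0 to 12.3% with Oligonol. Weighted by counts, protein-coding genes had a median GC content of 56.0 to 56.3% in the controls and 51.2, 54.1 and 51.6% in Oligonol libraries 1, 2 and 3. Markers of the line were present, with PHOX2A at 79.8 ± 10.4 CPM (counts per 1000000 of the TMM-scaled library total; mean ± SD, n = 3) in the controls and 45.1 ± 15.8 with Oligonol, and GATA2 at 64.3 ± 5.39 and 39.6 ± 6.46, while TH, the first enzyme of catecholamine synthesis, was at 0.0869 ± 0.0263 and 0.0319 ± 0.00475. Of 10 neuronal markers, 3 rose (ELAVL4, DCX and SNAP25) and 2 fell (ELAVL3 and TUBB3), and of the noradrenergic neuroblast markers 0 of the 9 tested rose and 2 fell (HAND1 and GATA2). Of the mesenchymal markers CD44 rose and COL3A1 fell among 8 tested, with the 12 genes summing to 68.0 to 96.2 CPM in the controls and 61.4 to 63.3 with Oligonol. Over all genes tested 26.0% rose and 23.0% fell. With each library's GC trend removed, 0 neuronal and 0 noradrenergic markers were called, and of the mesenchymal ones COL3A1 alone (lower). The noradrenergic median log2 fold change went from −0.63 to 0.29. Summed over 5 astrocyte markers the level was 0.765 to 1.25 CPM and 1.15 to 1.57, over 7 oligodendrocyte or Schwann cell markers 1.58 to 2.63 and 1.65 to 2.19, and over 5 myeloid markers 0.594 to 1.55 and 0.803 to 1.38, with AIF1 and ITGAM listed at 0 in every control library. In RNA from whole cultures, fewer cells of a type and less RNA per cell cannot be told apart.

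Under TMM scaling, synaptic adhesion and scaffold genes moved in both directions with Oligonol. In the SynCAM, L1, DLG and HOMER families 1 relative rose while another fell. With each library's GC trend removed, no member was called lower. Of the 36 members, 30 were expressed enough to be tested (17 adhesion, 13 scaffold). At an edgeR adjusted p under 0.05, 8 rose and 13 fell, while none of these 13 was below its controls when libraries were scaled by their totals alone (IGSF8 and HOMER3 were at about 0 there). The genes that rose were the adhesion genes CADM1, NCAM2, NRCAM and CNTN1 and the scaffold genes DLG1, MAGI1, MAGI3 and HOMER1. CNTN1 and HOMER1 were low in the controls (5.30 to 10.97 and 3.99 to 7.47 estimated counts). Both passed the low-count filter only through their Oligonol libraries, where they were higher. The genes that fell were NRXN2, PTPRS, PTPRF, CADM3, CADM4, IGSF8, L1CAM and CNTNAP1 among the adhesion genes and DLG4, DLGAP4, SHANK1, HOMER3 and BAIAP2 among the scaffolds. A further 9 did not pass the test. Over all 16574 genes tested the same rule called 48.9%, with 26.0% higher and 23.0% lower, and over the protein-coding genes 54.6%, with 27.1% higher and 27.5% lower. Calls were thus frequent throughout these libraries. On library totals alone 11293 of the 16574 genes tested were called higher and 37 lower, so few genes of any kind fell there.

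By role, 4 of 17 adhesion members rose (23.5%) and 8 fell (47.1%), and of 13 scaffold members 4 rose (30.8%) and 5 fell (38.5%). The median log2 fold change was −0.52 over the adhesion members and −0.30 over the scaffolds, against 0.15 over all genes tested. Both medians change sign on library totals alone (0.85 and 1.03, against 1.53 over all genes tested) and with each library's GC trend removed (0.24 and 0.25, against 0.03). Whether the roles differed from each other was not tested. The 3 control and 3 Oligonol libraries did not overlap in 26 of the 30 members, and they did not overlap in 62.6% of all genes tested. Summed CPM of the adhesion members was 134.4, 124.3 and 119.5 in the controls and 105.1, 109.5 and 108.8 with Oligonol, and of the scaffolds 38.3, 38.6 and 37.5 against 33.7, 33.1 and 32.9. After TMM scaling both sums were lower in every Oligonol library than in every control. On library totals alone both turned, with adhesion sums of 99.4, 76.0 and 63.5 in the controls against 203.7, 135.1 and 189.3, and scaffold sums of 28.3, 23.6 and 19.9 against 65.4, 40.8 and 57.2. The adhesion sum over the scaffold sum, a ratio that no scaling changes, was 3.51, 3.22 and 3.19 in the controls and 3.11, 3.31 and 3.31 with Oligonol, and the groups overlapped.

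The calls rested on single libraries to very different degrees, although the 21 called members had the same direction whichever library was left out. Without Oligonol 2, all 21 kept their call, and without control 1, 14 did. Without control 2 the 6 members NRXN2, NCAM2, NRCAM, CNTN1, MAGI1 and HOMER1 kept it, without Oligonol 1 the 6 members CADM1, NCAM2, NRCAM, MAGI1, MAGI3 and HOMER3, without Oligonol 3 the 4 members CADM1, NCAM2, NRCAM and MAGI1, and without control 3 NRCAM alone. Over all genes the number called ranged from 782 without control 3 to 9492 without Oligonol 2. In each of the 21 called members Oligonol 2 was the Oligonol library nearest to the control mean, as it was in 6735 of all 8112 genes called. The falls also depended on the low-count filter, since with no filter 10 of the 13 (all but NRXN2, IGSF8 and HOMER3) no longer passed while all 8 rises did. Over all genes, calls lower then went from 3808 to 1603 and calls higher from 4304 to 2964, with 42070 genes tested. With at least 10 counts in all libraries, CNTN1 and HOMER1 were not tested, and the other 6 rises kept their call.

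**Figure D1:**
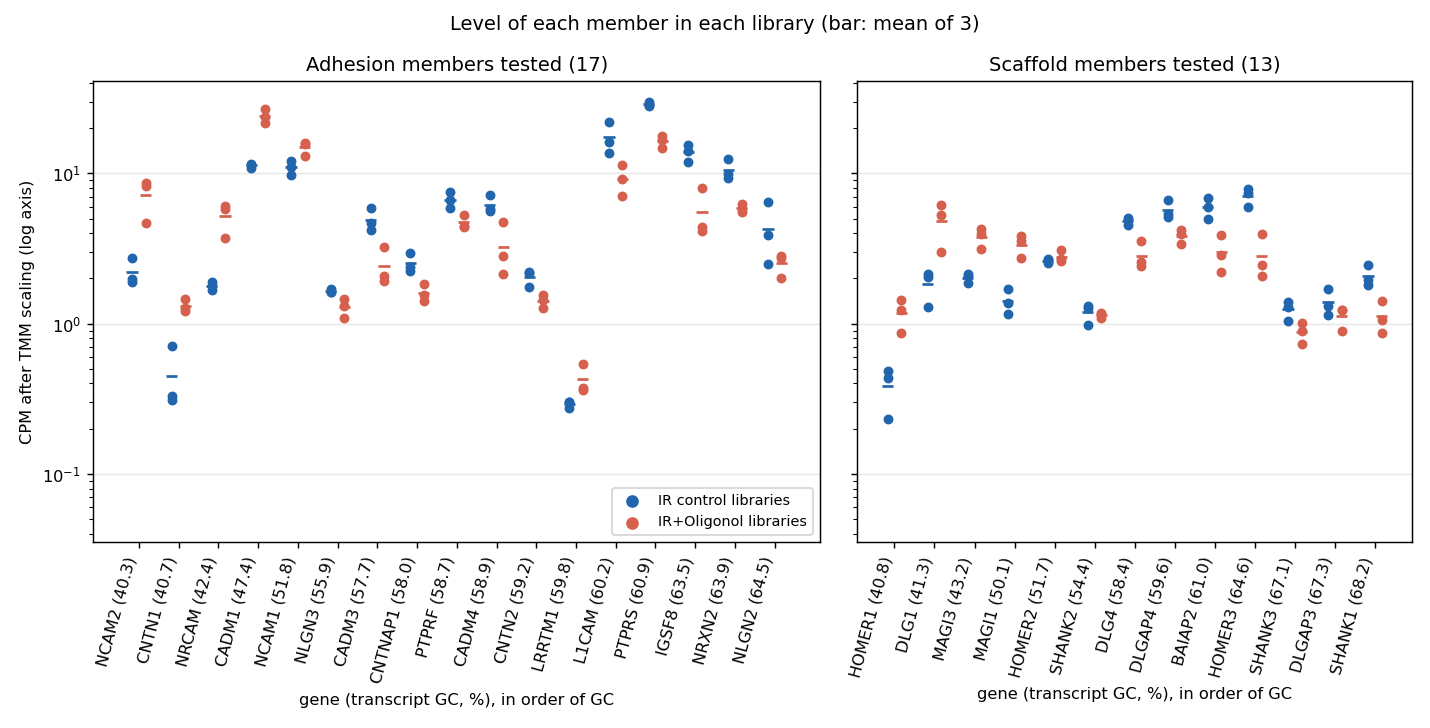
Level of each of the 30 tested members in each library, in CPM after TMM scaling on a log axis, with adhesion members on the left, scaffold members on the right and genes in order of transcript GC content. Blue points are IR control libraries, red points IR+Oligonol libraries and bars the means of 3; the members at the left of each panel are higher with Oligonol and most at the right are lower, though on library totals alone the 13 that fell have log2 fold changes of 6.4e-05 (IGSF8) to 0.85 (PTPRF).

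Among the presynaptic hubs, all 3 members fell under TMM scaling, though they lay above 0 on library totals alone. They also lay above 0 with each library's GC trend removed (NRXN2 0.16, PTPRS 0.089 and PTPRF 0.26, none called). NRXN2 (ENSG00000110076, chr11:64606174-64723197), a neurexin that binds neuroligins and LRRTM proteins, was at 12.4, 9.87 and 9.37 CPM in the controls and at 5.50, 6.29 and 5.77 with Oligonol. Every Oligonol library lay below every control, and the log2 fold change was −0.85 (SE 0.19, edgeR adjusted p = 0.0112). PTPRS, a LAR-type receptor phosphatase that binds proteoglycans and several postsynaptic partners, was the most abundant member in the controls, at 29.8, 28.2 and 28.6 CPM, and stood at 14.8, 17.8 and 16.6 with Oligonol. The groups lay far apart relative to their spread, and the log2 fold change was −0.82 (SE 0.20, edgeR adjusted p = 0.0137). PTPRF, the founding LAR phosphatase, was at 7.49, 5.88 and 6.64 CPM and at 4.38, 5.32 and 4.44, a smaller difference in which the groups still did not overlap (log2 fold change −0.51, SE 0.18, edgeR adjusted p = 0.0454). The call for PTPRF was lost under upper-quartile scaling, with the stricter filter of 10 counts in all libraries and from read equivalents.

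Of the postsynaptic partners of those hubs, none was called by edgeR's test under TMM scaling in all 6 libraries. NLGN2, the neuroligin of inhibitory synapses, was at 6.44, 3.88 and 2.49 CPM in the controls and at 2.00, 2.82 and 2.74 with Oligonol. Its controls spread widely and control 3 lay within the Oligonol range, so that the log2 fold change of −0.76 (SE 0.33) had an edgeR adjusted p of 0.0908. DESeq2 called it lower (−0.83, adjusted p = 0.0325), as did edgeR's test from read equivalents (−0.85, adjusted p = 0.0362). NLGN3 was at 1.63 to 1.69 CPM in the controls and 1.09 to 1.45 with Oligonol (edgeR adjusted p = 0.163), and passed without Oligonol replicate 2 (−0.65, edgeR adjusted p = 0.0393). LRRTM1, a leucine-rich neurexin ligand, was at 0.299, 0.301 and 0.275 CPM and at 0.543, 0.375 and 0.363, which is 35 to 37 and 54 to 87 read equivalents per library. All 3 Oligonol libraries were above all 3 controls, yet the difference did not pass (log2 fold change 0.51, SE 0.32, edgeR adjusted p = 0.278). LRRTM2 (0.78 to 3.50 estimated counts per control library and 5.31 to 13.4 per Oligonol library) was too low to test. LRRTM3 was listed at 0 in 4 libraries and at no more than 0.22 estimated counts in the others.

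The SynCAM proteins, immunoglobulin-type adhesion proteins that pair across the cleft, went apart under TMM scaling: CADM1 rose, and CADM3 and CADM4 fell. On library totals alone neither CADM3 nor CADM4 fell. With each library's GC trend removed neither was called (−0.36 and −0.20). CADM1 (ENSG00000182985, chr11:115169218-115504957) was at 10.9, 11.5 and 11.4 CPM in the controls and at 26.8, 21.7 and 23.8 with Oligonol. It was the most abundant member in the Oligonol libraries, and its 2 groups were tight and well apart (log2 fold change 1.09, SE 0.19, edgeR adjusted p = 0.00783). CADM3 was at 4.17, 4.70 and 5.85 CPM against 1.92, 3.22 and 2.06, without overlap (log2 fold change −1.04, SE 0.25, edgeR adjusted p = 0.0134). CADM4, which also acts in myelin, was at 5.59, 7.19 and 5.77 CPM against 2.15, 4.76 and 2.83. Its Oligonol libraries were all lower but spread more widely than its controls (log2 fold change −0.95, SE 0.30, edgeR adjusted p = 0.0305). IGSF8, a short gene of 7.60 kb whose immunoglobulin-type product associates with tetraspanins, was at 11.8, 14.1 and 15.4 CPM in the controls and at 4.16, 7.98 and 4.42 with Oligonol. Its log2 fold change was −1.33 (SE 0.28, edgeR adjusted p = 0.0105), the lowest among the adhesion members.

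In the NCAM and L1 families, which guide axons as well as synapses, NCAM2 and NRCAM rose and L1CAM fell under TMM scaling. L1CAM did not fall on library totals alone, and with each library's GC trend removed none of these genes was called. NCAM2 (ENSG00000154654, chr21:20998409-21543329) was at 1.89, 2.72 and 1.98 CPM in the controls and at 8.18, 4.70 and 8.67 with Oligonol. The lowest Oligonol library was still above the highest control, and the log2 fold change of 1.71 (SE 0.28, edgeR adjusted p = 0.00726) was the highest of all members. NCAM1, its more abundant relative and a carrier of polysialic acid, was at 12.1, 10.9 and 9.76 CPM against 15.79, 13.03 and 15.77. The groups did not overlap, but the difference did not pass (log2 fold change 0.44, SE 0.19, edgeR adjusted p = 0.0880). It passed as higher under upper-quartile scaling (edgeR adjusted p = 0.0493) and with 10 counts in all libraries (0.70, edgeR adjusted p = 0.0125).

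NRCAM (ENSG00000091129, chr7:108147623-108456717) was at 1.78, 1.88 and 1.67 CPM in the controls and at 6.10, 3.72 and 5.82 with Oligonol. Its controls were nearly equal and all Oligonol libraries lay above them (log2 fold change 1.55, SE 0.23, edgeR adjusted p = 0.00650), the smallest p among the members. L1CAM (ENSG00000198910, chrX:153861514-153886173), mutated in X-linked hydrocephalus, went the other way, from 22.1, 16.2 and 13.7 CPM to 7.06, 11.3 and 9.19. All Oligonol libraries were below all controls, with a wide spread in both groups (log2 fold change −0.92, SE 0.26, edgeR adjusted p = 0.0234). CHL1, the third member of the L1 family in the set, had at most 0.59 estimated counts in a control library and 2.67 to 4.83 in the Oligonol libraries and was not tested.

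NRCAM and L1CAM share the ankyrin-binding stretch of their cytoplasmic tails, and the same residues are written with different codons. The stretch is shown because this pair of relatives moved in opposite directions; capitals mark the bases at which the 2 genes differ, 9 in all and each at the third position of a codon. Both are read 5′ to 3′ from coding exons of the minus strand in GRCh38, with GENCODE 29 transcripts, NRCAM from chr7:108149976-108150032 (GC 40.4%) and L1CAM from chrX:153862729-153862785 (GC 50.9%).
NRCAM: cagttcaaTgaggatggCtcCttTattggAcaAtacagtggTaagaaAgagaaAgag
L1CAM: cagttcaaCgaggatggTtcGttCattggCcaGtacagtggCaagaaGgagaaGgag

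Contactins are lipid-anchored adhesion proteins that work with the CNTNAP (Caspr) proteins at axon contacts. CNTN1, the contactin of the paranodal junction, rose from a low level, from 0.330, 0.710 and 0.310 CPM to 1.28, 1.21 and 1.45. All Oligonol libraries lay above the controls, which rested on 11 to 24 read equivalents each (log2 fold change 1.53, SE 0.35, edgeR adjusted p = 0.0125). CNTN2 was at 2.16, 1.74 and 2.21 CPM against 1.27, 1.56 and 1.44. It was lower in all 3 Oligonol libraries but missed the threshold (log2 fold change −0.52, SE 0.20, edgeR adjusted p = 0.0580). It passed as lower under RLE scaling (edgeR adjusted p = 0.0401), with voom (adjusted p = 0.0498), from read equivalents (edgeR adjusted p = 0.0293) and without Oligonol replicate 2 (edgeR adjusted p = 0.0260), and as higher on library totals alone (0.85). CNTNAP1, the partner of CNTN1 at the paranode, fell under TMM scaling while CNTN1 rose. It went from 2.96, 2.38 and 2.25 CPM to 1.42, 1.83 and 1.55 (log2 fold change −0.67, SE 0.20, edgeR adjusted p = 0.0282), a call that the stricter filter removed. CNTNAP1 did not fall on library totals alone, and with each library's GC trend removed neither gene was called. CNTN3, at 1.91 to 8.17 estimated counts per library, and CNTNAP4, listed at 0 in the controls and at 0.20 to 2.29 estimated counts with Oligonol, were not tested.

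Among the scaffolds, the DLG pair went apart as NRCAM and L1CAM did, DLG1 rising and DLG4 falling under TMM scaling. DLG4 did not fall on library totals alone. With each library's GC trend removed neither gene was called (0.46 and −0.03). DLG1 (SAP97; ENSG00000075711, chr3:197042560-197299330), which also serves cell polarity in epithelia, was at 2.03, 2.14 and 1.29 CPM in the controls and at 6.11, 3.01 and 5.28 with Oligonol. Oligonol 2 was the lowest of its group but still above the controls (log2 fold change 1.41, SE 0.32, edgeR adjusted p = 0.0117). DLG4 (PSD-95; ENSG00000132535, chr17:7187187-7219841), the main scaffold of excitatory postsynapses, was at 4.53, 5.02 and 4.90 CPM against 2.56, 3.54 and 2.41. Its controls were close together and every Oligonol library was lower (log2 fold change −0.77, SE 0.20, edgeR adjusted p = 0.0161). DLG3, at 6.29 to 33.3 estimated counts per library, did not pass the filter.

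The second PDZ domains of the 2 DLG proteins share a run of residues that includes the loop which grips the ends of partner proteins. It is printed for the contrast in codon use; capitals mark the 12 bases that differ, all at the third codon position. Each stretch crosses an exon junction on the minus strand of GRCh38 (GENCODE 29), DLG1 within chr3:197136650-197138252 (GC 40.0%) and DLG4 within chr17:7203301-7203454 (GC 55.0%).
DLG1: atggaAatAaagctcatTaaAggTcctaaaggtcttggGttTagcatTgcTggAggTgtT
DLG4: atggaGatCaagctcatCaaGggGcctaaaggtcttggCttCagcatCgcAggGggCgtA

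Both MAGI scaffolds, membrane-associated guanylate kinases with PDZ and WW domains found at synapses and at epithelial junctions, rose under TMM scaling. With each library's GC trend removed, MAGI1 was called (1.11) and MAGI3 was not (0.093, edgeR adjusted p = 0.708). With the trend with genomic span removed too, neither was called (0.71 and −0.11). MAGI1 (ENSG00000151276, chr3:65353525-66038918) was at 1.71, 1.16 and 1.38 CPM in the controls and at 3.80, 2.72 and 3.54 with Oligonol. It spans 685 kb, has a transcript GC content of 50.1%, the highest of the members that rose, and did not overlap between the groups (log2 fold change 1.23, SE 0.22, edgeR adjusted p = 0.00829). MAGI3 was at 2.12, 2.06 and 1.87 CPM against 4.28, 3.14 and 3.96, with all Oligonol libraries higher (log2 fold change 0.90, SE 0.19, edgeR adjusted p = 0.0102).

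In the layer that links DLG proteins to SHANKs and the actin skeleton, DLGAP4, SHANK1 and BAIAP2 fell under TMM scaling. They did not fall on library totals alone. With each library's GC trend removed none was called, with DLGAP4 at 0.25, SHANK1 at 0.11 and BAIAP2 at −0.11. DLGAP4, a binder of the DLG guanylate kinase domain, was at 6.66, 5.35 and 5.11 CPM in the controls and at 3.37, 4.17 and 3.95 with Oligonol, without overlap (log2 fold change −0.58, SE 0.18, edgeR adjusted p = 0.0324). This call was lost under upper-quartile scaling and with the stricter filter, and DLGAP3 (0.900 to 1.70 CPM over the 6 libraries) was not called (edgeR adjusted p = 0.353). SHANK1, a master scaffold of dendritic spines, was at 2.45, 1.80 and 1.96 CPM against 1.06, 1.42 and 0.867. All Oligonol libraries were below all controls (log2 fold change −0.89, SE 0.25, edgeR adjusted p = 0.0215). SHANK2 (0.978 to 1.31 CPM over the 6 libraries) and SHANK3 (0.726 to 1.39 CPM) did not pass, with edgeR adjusted p = 0.860 and 0.112, but SHANK3 passed as lower from read equivalents (edgeR adjusted p = 0.0451) and without Oligonol replicate 2 (edgeR adjusted p = 0.0403). BAIAP2 (IRSp53), first known as a substrate of the insulin receptor and a link from SHANK and DLG4 to actin, was at 4.97, 5.99 and 6.80 CPM against 2.20, 3.88 and 2.86. The highest Oligonol library was below the lowest control (log2 fold change −0.998, SE 0.25, edgeR adjusted p = 0.0145).

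HOMER proteins bind metabotropic glutamate receptors, SHANKs and calcium-store channels. Under TMM scaling their 3 genes showed 3 patterns, a rise, no call and a fall. The fall was absent on library totals alone, and with each library's GC trend removed none of the HOMER genes was called. HOMER1 (ENSG00000152413, chr5:79372636-79514134) was at 0.432, 0.483 and 0.233 CPM in the controls and at 1.44, 0.867 and 1.24 with Oligonol. The groups were apart, with 9 to 18 read equivalents per control library and 39 to 72 per Oligonol library (log2 fold change 1.68, SE 0.35, edgeR adjusted p = 0.0103). The table gives 1 value per gene, so the long HOMER1 form and the short, activity-induced form cannot be told apart. HOMER2 was at 2.52 to 2.67 CPM in the controls and 2.59 to 3.09 with Oligonol, with overlap (edgeR adjusted p = 0.671). HOMER3 (ENSG00000051128, chr19:18929201-18941261), the most abundant of the 3 in the controls, was at 5.99, 7.87 and 7.41 CPM against 2.08, 3.97 and 2.44. All its Oligonol libraries were lower, and its log2 fold change of −1.33 (SE 0.27, edgeR adjusted p = 0.00930) was the lowest of the scaffolds.

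HOMER1 and HOMER3 share a run of residues in the EVH1 domain, the part that binds proline-rich motifs of receptors and SHANKs. It is shown as the pair with the widest gap in GC content and the widest change in ratio; capitals mark the 13 differing bases, all at the third codon position, on the minus strand of GRCh38 (GENCODE 29), HOMER1 at chr5:79451041-79451100 (GC 46.7%) and HOMER3 at chr19:18938404-18938463 (GC 56.7%).
HOMER1: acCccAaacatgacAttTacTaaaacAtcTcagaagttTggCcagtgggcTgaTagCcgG
HOMER3: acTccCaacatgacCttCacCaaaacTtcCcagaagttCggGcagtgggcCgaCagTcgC

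Ratios between 2 relatives within a library do not depend on how libraries are scaled, though removing a GC trend, which was not done here, would change them. For each of 11 families with more than 1 tested member, the level of the relative with the lowest transcript GC was divided by that of the relative with the highest. The values behave as abundances per transcript length, which allows for length between genes. They were not corrected for GC content, in which the libraries differ, so a ratio need not equal that of the transcripts in the cells. HOMER1 stood at 0.0721, 0.0614 and 0.0315 of HOMER3 in the controls and at 0.692, 0.218 and 0.509 with Oligonol, a mean change of 3.04 in log2 ratio. HOMER1 thus remained below HOMER3 in all 6 libraries. DLG1 was at 0.449, 0.426 and 0.263 of DLG4 in the controls and at 2.39, 0.849 and 2.19 with Oligonol, so that DLG1 exceeded DLG4 in Oligonol libraries 1 and 3 only. NRCAM was at 0.0805, 0.116 and 0.122 of L1CAM against 0.865, 0.328 and 0.633, and CNTN1 at 0.153, 0.407 and 0.140 of CNTN2 against 1.00, 0.779 and 1.01. Both of these ratios were higher in every Oligonol library than in any control.

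CADM1 was at 1.95, 1.60 and 1.98 times CADM4 in the controls and at 12.5, 4.56 and 8.39 times with Oligonol, and NCAM2 at 0.156, 0.249 and 0.203 of NCAM1 against 0.518, 0.361 and 0.550. The ratios of SHANK2 to SHANK1 (mean log2 change 0.86) and of PTPRF to PTPRS (0.32) were also higher with Oligonol, without overlap. Exceptions were MAGI3 over MAGI1 (−0.35) and DLGAP4 over DLGAP3 (−0.28), which were lower with Oligonol without overlap, and NLGN3 over NLGN2, whose groups overlapped (0.29, exact permutation p = 0.6). Groups did not overlap in 10 of the 11 pairs, each with a 2-sided exact permutation p = 0.1, the smallest that 3 libraries against 3 can give (0.11 after Benjamini-Hochberg adjustment over the 11 pairs), so no pair could pass 0.05 by this test. Non-overlap was not counted over pairs of other genes, and 62.6% of all single genes tested did not overlap. Each ratio sets a lower-GC gene over a higher-GC one, and fold change went down with GC content over all protein-coding genes (Spearman correlation −0.85). With each library's GC trend removed, HOMER1 stood at 0.71 and HOMER3 at −0.36. CADM1 and CADM4 then stood at 0.66 and −0.20, NRCAM and L1CAM at 0.67 and −0.08, and DLG1 and DLG4 at 0.46 and −0.03. CNTN1 and CNTN2 stood at 0.60 and 0.29, NCAM2 and NCAM1 at 0.70 and 0.53, and SHANK2 and SHANK1 at 0.34 and 0.11. Of the genes in these pairs CADM1 alone was called.

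**Figure D2:**
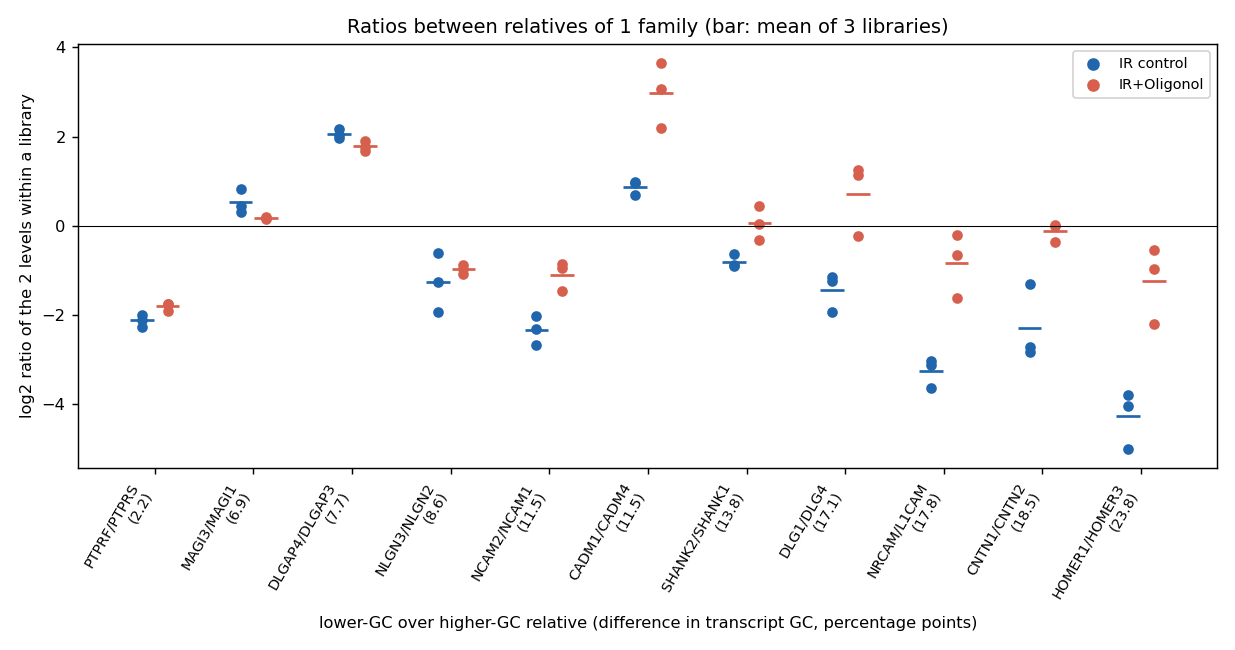
Log2 ratio between 2 relatives of 1 family in each library, lower-GC gene over higher-GC gene, for 11 pairs ordered by their difference in transcript GC content (percentage points, in brackets). Blue points are IR control libraries, red points IR+Oligonol libraries and bars the means of 3; the HOMER1/HOMER3 mean goes from −4.27 to −1.23, and MAGI3/MAGI1 and DLGAP4/DLGAP3 are lower with Oligonol.

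The members' direction went with the base composition of their transcripts. Transcript GC content (the median over a gene's GENCODE 29 transcripts) was 40.3 to 50.1% in the 8 members that rose, 57.7 to 68.2% in the 13 that fell and 51.7 to 67.3% in the 9 that were not called. The ranges of the first 2 classes did not overlap. Across the 30 tested members the Spearman correlation of fold change with GC content was −0.77, and across all 11719 protein-coding genes tested it was −0.85; genes are not independent replicates, and all share the 6 libraries. Of the 4627 protein-coding genes with a GC content in the range of the members that rose, 47.5% rose and 1.36% fell, with a median log2 fold change of 0.68. Of the 2941 in the range of the members that fell, 77.0% were called, 76.6% lower and 0.442% higher, with a median of −0.95. The members' calls and medians are thus to be read against these shares, and what part the composition of the libraries has in the members' changes was not tested.

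The members that rose also lay on longer genes, from 141 to 685 kb, than those that fell, from 7.60 to 222 kb. The Spearman correlation of fold change with genomic span was 0.70 over the 30 members, and span and GC content were themselves related (Spearman correlation −0.64). The coding sequences differed in the same direction: GC content at the third codon position was 32.6 to 59.2% in the members that rose, 66.9 to 81.9% in those that fell and 68.4 to 87.9% in those not called. A shared stretch was also read for CADM1 and CADM4, which moved in opposite directions too. It is 21 bases long, is not printed, and had the same GC content in both genes (42.9%). At the promoter, in windows of 300 bases around RefSeq starts (GRCh38.p14), median GC was 58.7% for the 7 risen members with a window, equal to the median of all windows (58.7%), and 68.7% for the 11 fallen ones.

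**Figure D3:**
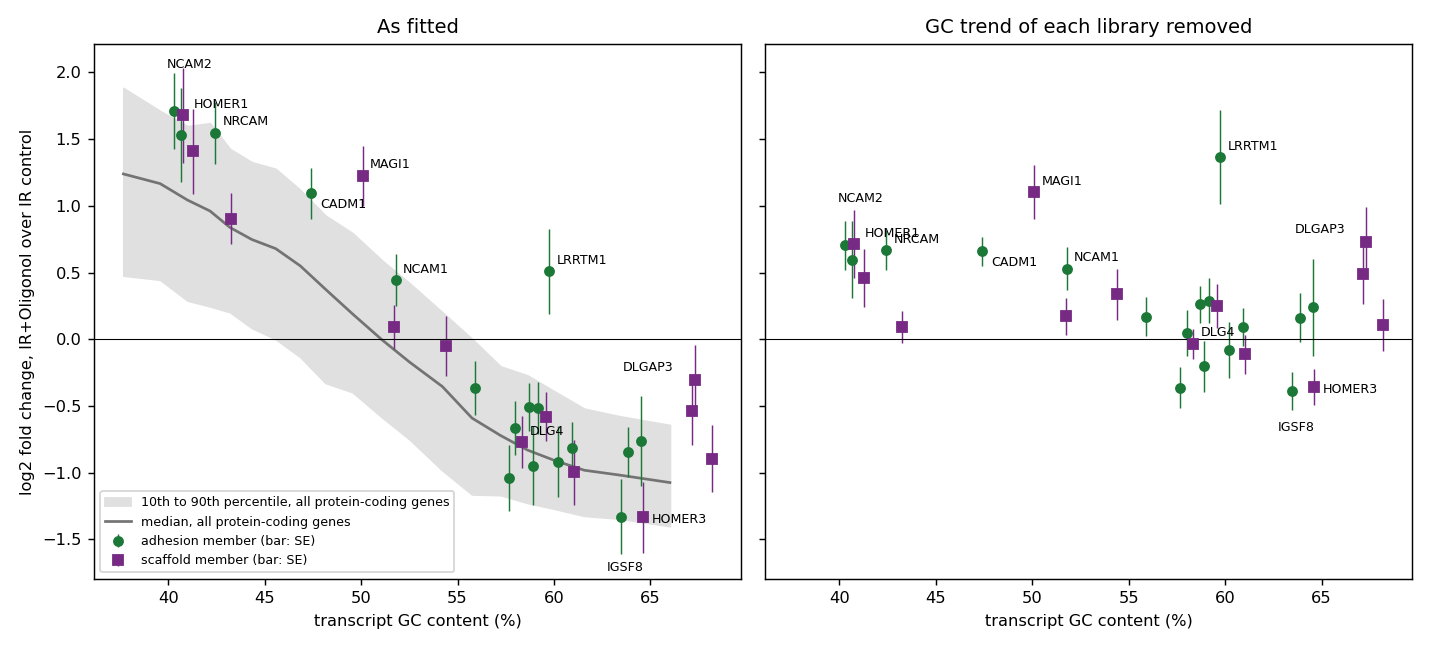
Log2 fold change (IR+Oligonol over IR control, TMM scaling) of the 30 tested members against transcript GC content in percent, as fitted (left) and after each library's GC trend was removed (right). Points are adhesion members (circles) and scaffold members (squares) with SE bars, and the grey line and band are the median and the 10th to 90th percentiles of all protein-coding genes in 20 bins of GC; 7 members (LRRTM1, NCAM1, NCAM2, MAGI1, DLGAP3, SHANK3 and HOMER1) lie above the band of their bin, NCAM2 at its edge, and the other 23 within it, while on library totals alone none of the falls is below 0.

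When each library's GC trend was removed before the test, 882 of 16200 genes were called (5.44%; 2.89% higher and 2.56% lower), and among the members CADM1 and MAGI1 remained. CADM1 kept a log2 fold change of 0.66 (SE 0.11, edgeR adjusted p = 0.0335) and MAGI1 of 1.11 (SE 0.20, edgeR adjusted p = 0.0366). The next members were NRCAM (0.67, SE 0.15, edgeR adjusted p = 0.0516), LRRTM1 (1.37, SE 0.35, edgeR adjusted p = 0.0680) and NCAM2 (0.70, SE 0.19, edgeR adjusted p = 0.0723), none of which passed. No member fell by that test, although IGSF8 (−0.39) and HOMER3 (−0.36) were below 0 at an unadjusted edgeR p under 0.05. HOMER1 stood at 0.71 and DLG1 at 0.46, neither called, and DLG4 lay at −0.03. The median of the 30 members moved from −0.51 to 0.24. This correction removes any true change that goes with GC content along with any technical one.

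The 2 calls that remained were not firm. Without control 1 the GC-corrected test called MAGI1 alone among the members, without Oligonol 2 MAGI1 and NRCAM, and with any of the other 4 libraries left out none. With GC content taken from the longest coding transcript instead, CADM1, NRCAM and MAGI1 were called higher and HOMER2 lower (−0.70). When trends with genomic span were removed as well, 4.19% of all genes (2.73% higher and 1.46% lower) and 0 of the 30 members were called by edgeR. At an unadjusted p under 0.05, 4 members were then higher (LRRTM1, CADM1, NRCAM and MAGI1) and 3 lower (CADM3, IGSF8 and HOMER3). MAGI1 stood at 0.71 (edgeR adjusted p = 0.0508) and CADM1 at 0.41 (edgeR adjusted p = 0.0796).

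**Figure D4:**
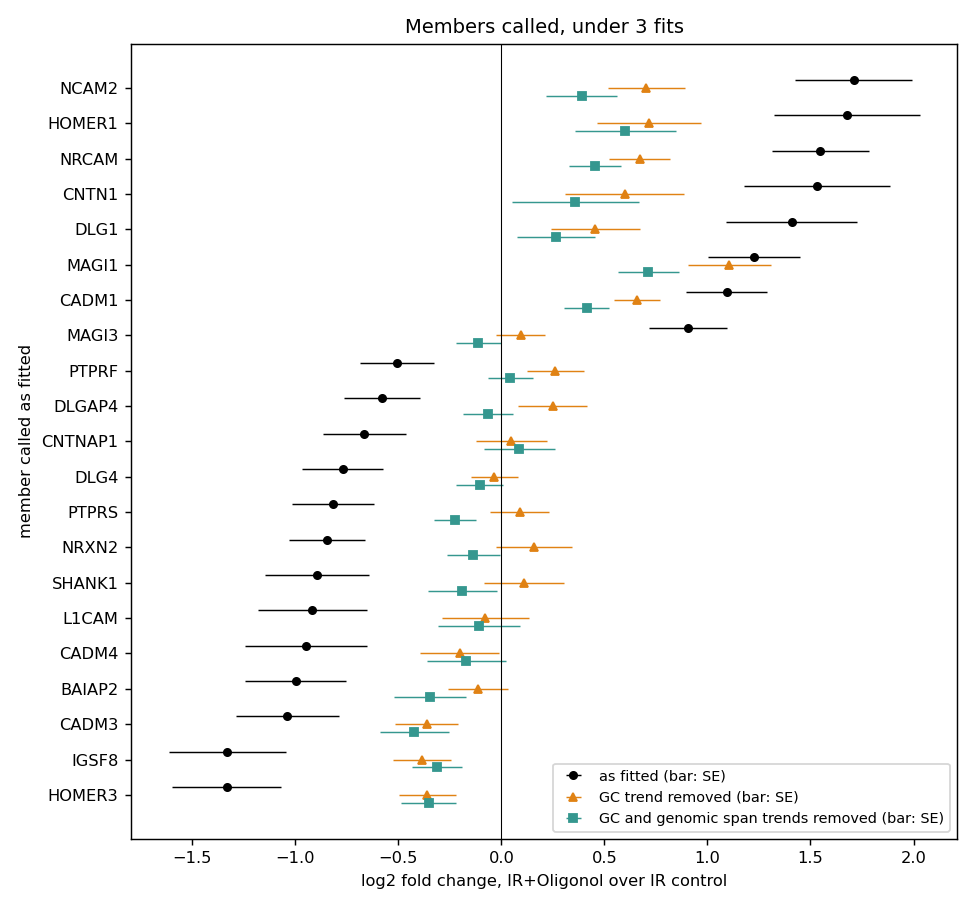
Log2 fold change (IR+Oligonol over IR control, TMM scaling) of the 21 called members as fitted (black), with each library's GC trend removed (orange) and with GC and genomic span trends removed (teal); bars are SE. MAGI1 goes from 1.23 to 1.11 and 0.71 and HOMER3 from −1.33 to −0.36 and −0.35, and on library totals alone none of the 13 falls is below 0.

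Several members overlap other genes on the opposite strand by their start and end positions. Whether they share exons was not checked, and no source says whether the authors' counting used strand. Whether reads of such partners entered the members' values was therefore not tested. DLG4 overlaps ACADVL, a far more abundant gene of fatty acid oxidation at 56.6 CPM in the controls and 25.03 with Oligonol, which fell with it (log2 fold change −1.18, edgeR adjusted p = 0.0127). SHANK1 overlaps C19orf81 (3.89 and 1.24 CPM) and BAIAP2 overlaps AATK (4.01 and 2.02 CPM), and both partners fell. CADM1 has the antisense gene CADM1-AS1, which rose with it from 0.648 to 3.42 CPM (log2 fold change 2.40, edgeR adjusted p = 0.00601). LRRTM1 lies within CTNNA2, which was more abundant and rose (1.96 to 3.90 CPM, log2 fold change 1.00, edgeR adjusted p = 0.00965). No member had values identical to those of another gene. In the genome, DLG4 and NLGN2 are 185 kb apart on chromosome 17 (log2 fold changes −0.77 and −0.76), and CADM3 and IGSF8 888 kb apart on chromosome 1 (−1.04 and −1.33).

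A list of 13 further relatives holds genes that span 896 kb or more, and of the 8 tested 5 rose (among them NLGN1, CNTNAP2, MAGI2 and DLG2) and 0 fell by edgeR's test. Over all genes tested 26.0% rose and 23.0% fell. The median transcript GC content of the list was 45.8%, and of protein-coding genes at 40.3 to 50.1% GC, 47.5% rose and 1.36% fell. CNTNAP2, a partner of CNTN2, rose from 1.15 ± 0.625 to 6.11 ± 0.755 CPM (SD, n = 3; log2 fold change 2.40, SE 0.32, edgeR adjusted p = 0.00615), and DLG2 (PSD-93) from 4.86 ± 0.804 to 11.8 ± 3.22 (1.28, SE 0.26, edgeR adjusted p = 0.00930). These opposed the falls of CNTNAP1 and DLG4 in the same families under TMM scaling, falls that were not called with the GC trend removed. With the GC trend removed, CNTNAP2 alone of these relatives was called (1.83, edgeR adjusted p = 0.0324), where 5.44% of all genes were.

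Other genes of the same machinery also went both ways, as did all genes tested, of which 26.0% rose and 23.0% fell. The counts of each list are to be read against these shares. Of 34 tested among 60 other synaptic adhesion genes, 9 rose and 8 fell (median log2 fold change −0.36), led by the adhesion receptors ADGRL2, a latrophilin (1.75, SE 0.26, edgeR adjusted p = 0.00629), and ADGRB3 (1.60, SE 0.26, edgeR adjusted p = 0.00702). Of 38 tested among 43 other scaffold genes in the table, 9 rose and 13 fell (median −0.27). The smallest p belonged to LZTS3, a SHANK3-binding protein (−1.13, SE 0.20, edgeR adjusted p = 0.00774), and LIN7B, a small PDZ adaptor (−1.38, SE 0.26, edgeR adjusted p = 0.00844). Of 13 glutamate and GABA receptor genes tested among 36, 6 rose and 2 fell (GRIN1 and GRIK5), with GRM7, a presynaptic metabotropic receptor, at 2.01 (SE 0.27, edgeR adjusted p = 0.00616) and GRIA2, an AMPA receptor subunit, at 1.45 (SE 0.32, edgeR adjusted p = 0.0116). Of 15 tested among 17 cytoplasmic partners, 5 rose (ANK2, ANK3, EPB41, PPFIBP1 and CASK) and 2 fell, PPFIA3 among them. ANK2, an ankyrin of the kind that binds the NRCAM and L1CAM tails, rose by 1.34 (SE 0.25, edgeR adjusted p = 0.00829), and PPFIA3, a liprin that binds LAR phosphatases, had a log2 fold change of −1.30 (SE 0.22, edgeR adjusted p = 0.00761). Once the GC trend was taken out, 1 gene of each of these 4 lists was called, namely ADGRL2, GRM7, ANK2 and, among the scaffolds, CAMK2B, which was chosen after its value was seen. Over all genes 5.44% were called by that test.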

How the data were processed

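Total RNA (TRIzol) went into stranded total RNA libraries sequenced as read pairs of 100 nt, per the labels' protocols. FastQC, kallisto 0.46.1, edgeR and the genome GRCh38.p13 are listed in the submitters' processing notes without their roles. The authors deposited, per gene and library, an estimated count and a scaled signal. Within a library the deposited signal is a constant multiple of the count, and it was left aside. How transcripts became gene values, and whether strand was used, no source here states. The deposited estimated counts behaved as abundances per transcript length scaled to a library total: of low values of genes with 1 transcript of 500 to 1500 nt, 69.5 to 72.0% lay within 0.05 of a whole read (up to 4 reads) after lengths and a scale fitted in each library to favour whole reads. A read from a transcript of 1000 nt then equals 0.312 to 0.548 estimated counts, and protein-coding genes held 5174231 to 6397462 read equivalents per library. Counting noise of long mRNAs is therefore overstated.

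Estimated counts were rounded, filtered with filterByExpr (16574 genes), scaled by TMM and tested with edgeR 4.0.16 in R 4.3.3 (robust quasi-likelihood test, group as the only term, 2-sided, Benjamini-Hochberg over all genes tested, threshold 0.05), after a test on simulated data. SE is the standard error implied by the test. GENCODE 29, matched by 58254 gene identifiers, gave transcript GC content, length and coding sequence, and the authors' release may differ. Each library's trend of log2 CPM (prior count 2) with GC content was fitted on protein-coding genes as a natural spline (5 degrees of freedom) and entered as an offset, which covered 97.7% of tested genes. Alternatives were RLE, upper-quartile and total scaling, DESeq2 1.42.0, voom of limma 3.58.1, other filters, read equivalents, the replicate number as a block, a threshold of 0.01 and each library left out. GC content by the longest coding transcript and removal of the span trend were added after the data were seen. The members and all gene lists were chosen with earlier results of these data known. Members that passed the test, or were the most abundant of their family, are given by library, others by range, and of each companion list the 2 genes with the smallest p. MPP5 and MPP6 of the scaffold list were not matched by name. Some genes of the companion lists are counted but not named here.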

Additional observations from a re-analysis of the deposited data

How the results depend on the processing

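The 21 called members kept their direction and their call under RLE scaling, DESeq2 and voom, and all kept their direction under upper-quartile scaling (19 called), no filter (11 called), at least 10 counts in all libraries (16 of 19 tested called), read equivalents (20 called), the replicate block (18 called, without PTPRF, CNTNAP1 and DLGAP4) and each library left out. Calls were gained by CNTN2 (RLE scaling, voom, read equivalents, without Oligonol replicate 2), NLGN2 (DESeq2, read equivalents), SHANK3 (read equivalents, without Oligonol replicate 2), NLGN3 (without Oligonol replicate 2), NCAM1 (upper-quartile scaling, at least 10 counts, library totals) and LRRTM1 and HOMER2 (library totals). Same-numbered libraries showed no common deviation from their group means (r = 0.087, −0.0087 and −0.15, with the GC trend left in). With 3 libraries per group this cannot exclude a pairing, and the labels state none. The block of replicate numbers gave 7030 genes called against 8112. Over all genes 4567 were called with no filter, 2180 at an adjusted p under 0.01, 882 with the GC trend removed, 0 with the GC trend removed and the replicate block (3995 at an unadjusted edgeR p under 0.05), 1236 with GC content by the longest coding transcript and 678 with GC and span trends removed.

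On library totals 11293 of all 16574 genes tested were called higher and 37 lower, and the members' counts there are to be read against this. Adhesion members called higher (4 as reported) were 10 on library totals, 1 with the GC trend removed, 0 with the block as well, 2 by the longest transcript and 0 with span removed too. Adhesion members called lower (8) were 0 under each of these and at 0.01, and 2 with no filter. Scaffold members called higher (4) were 9 on totals, 1 with GC removed, 0 with the block as well, 1 by the longest transcript, 0 with span and 1 at 0.01. Scaffold members called lower (5) were 0 on totals, with GC removed, with the block as well and with span, and 1 with no filter, by the longest transcript and at 0.01. The adhesion median (−0.52) became 0.85 on totals, −0.36 with no filter, 0.24 with GC removed, 0.27 with the block as well, 0.19 by the longest transcript and 0.13 with span, and the scaffold median (−0.30) became 1.03 on totals, 0.25 with GC removed, 0.26 with the block as well, 0.22 by the longest transcript and −0.065 with span.

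With each library left out, calls ranged from 782 to 9492 over all genes (0 to 491 with GC removed as well), from 1 to 4 for adhesion higher (0 to 1), from 0 to 10 for adhesion lower (0 in each), from 0 to 4 for scaffold higher (0 to 1) and from 0 to 6 for scaffold lower (0 in each). The adhesion median ranged from −0.78 to −0.45 (0.11 to 0.33 with GC removed) and the scaffold median from −0.40 to −0.11 (0.16 to 0.40). The cause of this range was not tested.

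On library totals alone, where the median of all genes tested is 1.53, no fall stayed below 0: NRXN2 0.50, PTPRS 0.55, PTPRF 0.85, CADM3 0.32, CADM4 0.36, IGSF8 6.4e-05, L1CAM 0.38, CNTNAP1 0.67, DLG4 0.58, DLGAP4 0.77, SHANK1 0.43, HOMER3 0.0030 and BAIAP2 0.36, and NLGN3 (0.99), CNTN2 (0.85), DLGAP3 (1.03) and SHANK2 (1.32) were called higher there. All 17 lie below that median. With the GC trend removed, falls changed sign for NRXN2 (0.16), PTPRS (0.089), PTPRF (0.26), CNTNAP1 (0.048), DLGAP4 (0.25) and SHANK1 (0.11), none called. With the block as well the same 6 were at 0.16, 0.082, 0.27, 0.060, 0.26 and 0.11, and by the longest transcript at 0.17, 0.16, 0.32, 0.012, 0.35 and 0.11, where HOMER2 was called at −0.70. With span removed too, PTPRF (0.044), CNTNAP1 (0.088) and MAGI3 (−0.11) changed sign. Over all fits that left out a library, with and without the GC trend, values ranged from −1.09 to 0.31 for NRXN2, −1.07 to 0.16 for PTPRS, −0.79 to 0.36 for PTPRF, −0.96 to 0.19 for CNTNAP1, −0.84 to 0.39 for DLGAP4, −1.29 to 0.25 for SHANK1, −1.14 to 0.018 for DLG4 and −1.29 to 0.15 for L1CAM, above 0 only with the GC trend removed. The cause of these changes was not tested. Depth limits HOMER1, CNTN1 and LRRTM1 most among the tested members, at 3.99 to 10.97 estimated counts per control library. This is 9 to 37 read equivalents by median transcript length. HOMER1, CNTN1 and LRRTM1 passed the low-count filter only through their Oligonol libraries.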
